A study of Mus musculus with 9 samples.

Results

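The 10 genes described here are 8 chaperones and co-chaperones of the heat shock response (Hsph1, Hspa8, Dnajb1, Bag3, Hsp90aa1, Chordc1, Hspd1 and Hspe1) and 2 cold-inducible RNA-binding proteins (Cirbp and Rbm3). They were taken by gene symbol from a table of 18042 genes, and all 10 passed the filter on low counts, as did 13090 genes in all. The 10 genes had been selected on their differences in level between the groups of these same libraries. Their levels and fold changes are therefore a description of these libraries, and no p-value is given for them. Counts of members past a test's threshold, given further on, serve the same description and are no evidence about the members.

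The cells were macrophages of tumours grown from MC38, a mouse colon carcinoma line, and a CD11b+ F4/80+ sort had isolated them before RNA sequencing. The 9 libraries fall into the groups IN@OMVs, OMVs and Control, each with 3 biological replicates. All mice were WT female C57BL/6, 6 to 8 weeks old, carried a subcutaneous graft of 1000000 MC38 cells and were assigned to groups on day 9. IN@OMVs tumours received IN@OMVs, and OMVs tumours received OMVs, by injection into the tumour at 12.5 µg of vesicle protein per mouse, which the design text gives as 625 µg per kg of body weight. Control tumours received the same volume of solvent, named as PBS in the sample descriptions. OMVs is the usual abbreviation for outer membrane vesicles, which Gram-negative bacteria release. The labels leave that name and IN unexplained, and they do not say how long after injection the tumours were taken or how many mice gave a replicate. The p-values below therefore set differences between groups against the spread between these samples, whatever its source.

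Heat shock factors, above all HSF1, bind arrays of inverted GAA units called heat shock elements and switch on chaperones when unfolded proteins accumulate. Cirbp and Rbm3 are glycine-rich RNA-binding proteins whose transcripts are known to be more abundant below normal body temperature and less abundant above it. In macrophages, heat and bacterial products are known to induce chaperone genes.

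The promoters of the members are shown because the heat shock element is the sequence through which HSF1 is known to act on chaperone genes, and because an octamer in the Cirbp promoter has been described as a cold-response element. Of the 10 members, 7 matched the RefSeq promoter table, which holds 250 bases before and 50 after each start site on GRCm38.p6. No sequence is shown for Hspa8, Hsp90aa1 and Rbm3. The promoters of 3 members with runs of alternating units and that of Cirbp are printed 5′ to 3′ on the strand of the gene. Capitals mark matches, on either strand, to the pairs GAANNTTC and TTCNNGAA or to the octamer TCCCCGCC (GGCGGGGA on the other strand). The windows are chr5:149636266-149636565 (minus strand) for Hsph1, chr9:18292017-18292316 (plus strand) for Chordc1, chr1:55087898-55088197 (plus strand) for Hspe1 and chr10:80167589-80167888 (plus strand) for Cirbp.
Hsph1: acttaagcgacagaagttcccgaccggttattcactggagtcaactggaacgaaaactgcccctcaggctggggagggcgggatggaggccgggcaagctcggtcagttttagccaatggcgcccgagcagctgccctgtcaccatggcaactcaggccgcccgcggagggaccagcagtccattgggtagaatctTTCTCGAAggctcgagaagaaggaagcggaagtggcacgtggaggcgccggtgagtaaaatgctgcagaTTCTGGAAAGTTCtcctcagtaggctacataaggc
Chordc1: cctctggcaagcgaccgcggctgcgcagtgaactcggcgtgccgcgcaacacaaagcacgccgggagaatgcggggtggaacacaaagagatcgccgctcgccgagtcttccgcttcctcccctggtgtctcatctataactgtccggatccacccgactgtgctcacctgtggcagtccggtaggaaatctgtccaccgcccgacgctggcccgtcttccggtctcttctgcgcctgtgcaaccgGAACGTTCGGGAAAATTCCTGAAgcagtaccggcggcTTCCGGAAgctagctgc
Hspe1: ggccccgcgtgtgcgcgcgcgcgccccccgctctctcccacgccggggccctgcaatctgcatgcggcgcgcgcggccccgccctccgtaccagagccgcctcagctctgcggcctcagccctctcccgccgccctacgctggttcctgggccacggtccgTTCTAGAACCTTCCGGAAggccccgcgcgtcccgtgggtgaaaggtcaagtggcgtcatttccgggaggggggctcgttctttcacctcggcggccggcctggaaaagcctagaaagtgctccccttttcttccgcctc
Cirbp: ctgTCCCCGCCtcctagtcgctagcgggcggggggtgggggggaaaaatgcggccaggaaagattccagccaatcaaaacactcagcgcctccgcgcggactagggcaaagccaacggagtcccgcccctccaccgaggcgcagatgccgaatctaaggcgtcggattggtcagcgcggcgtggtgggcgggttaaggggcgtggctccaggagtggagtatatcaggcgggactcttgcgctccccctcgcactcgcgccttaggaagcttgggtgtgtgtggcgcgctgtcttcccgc

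A run of 3 alternating units (GAANNTTCNNGAA or TTCNNGAANNTTC) stood in a window of 4 of the 7 matched members, namely Hsph1, Chordc1, Hspd1 and Hspe1. Among all 27025 genes with a RefSeq window, 0.662% held such a run, and of the 32851 windows 0.603% did. A pair of units stood in 5 members, these 4 and Bag3, and in 17% of all genes or 15.1% of all windows. The pairs overlap the longer runs, and in Chordc1 overlapping runs spanned bases -4 to 19 around the start site. Hspd1 and Hspe1 encode a chaperonin and its lid. Of the 2 windows of Hspd1, chr1:55088194-55088493 (minus strand) held no pair of units, while chr1:55087883-55088182 (minus strand) held the run. The start site of this second window lies 216 bases from that of Hspe1, and the genes are transcribed away from each other. This window and that of Hspe1 overlap by 285 bases and share the same 18-base block, chr1:55088059-55088076, which reads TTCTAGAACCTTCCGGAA on the Hspe1 strand. The octamer stood in the printed window of Cirbp at bases -247 to -240, and also in Bag3 and in a second window of Dnajb1. Another window of Cirbp, chr10:80167921-80168220 (plus strand), held no octamer and no pair of units. It was found in 6.19% of all genes and 5.38% of all windows. These are matches of letters and no measurement of binding.

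The macrophage label was checked on marker genes, of which Itgam and Adgre1 encode the antigens of the sorting gate. All 10 macrophage markers, among them Cd68, Csf1r and C1qa, were detected in every library, with summed levels of 11358 to 16415 CPM (counts per 1000000 counts of the library, scaled by TMM factors) in IN@OMVs, 11138 to 14870.1 CPM in OMVs and 11806 to 13827 CPM in Control. By edgeR 0 of 10 passed in any comparison. At an unadjusted p under 0.05 stood 0 in OMVs against Control, 3 in IN@OMVs against Control and 1 in IN@OMVs against OMVs. DESeq2 called 1 in each comparison with IN@OMVs, and limma-voom 1 in IN@OMVs against Control. The libraries numbered 1 held more T cell transcripts than the others, with 11 of 12 markers in the table, summing to 310 CPM in IN@OMVs 1, 263 CPM in OMVs 1 and 295 CPM in Control 1, against 93.3 to 173 CPM in the other 6. None of the 11 was at 0. Of these Il7r passed the test, in IN@OMVs against Control, where it was higher. It had 71.2 to 78.0 CPM in IN@OMVs, 60.1 to 65.9 CPM in OMVs and 47.1 to 59.7 CPM in Control. Il7r was thus a large part of the sums outside the libraries numbered 1. In bulk libraries fewer cells of a type and less RNA per cell cannot be told apart. IN@OMVs 1 held the lowest fibroblast signal, with a summed 1464 CPM over 9 fibroblast markers, against 4677 and 4662 CPM in IN@OMVs 2 and 3, 3440.6 to 4509 CPM in OMVs and 4199 to 5845 CPM in Control. No fibroblast marker was at 0 in any library and 0 of 9 passed the test in the 3 comparisons by edgeR, DESeq2 or limma-voom, with 1 at an unadjusted p under 0.05, in IN@OMVs against Control.

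Neutrophil transcripts were lower in IN@OMVs. The 9 markers summed to 129 to 195 CPM in IN@OMVs, 560.3 to 745 CPM in OMVs and 785 to 1149 CPM in Control, and 8 of the 9 fell in IN@OMVs against each of the other groups (edgeR, adjusted p under 0.05). Of all genes tested, 3.24% fell in IN@OMVs against Control and 1.75% in IN@OMVs against OMVs. With the replicate block all 9 fell in IN@OMVs against Control, Camp included (edgeR, adjusted p = 0.0449). In OMVs against Control all 9 log2 fold changes were negative, with a median of -0.51 and 5 at an unadjusted p under 0.05. There 0 passed by edgeR or limma-voom, 2 by DESeq2 and 1, Retnlg, with the block (edgeR, adjusted p = 0.042). Camp was at 0 in IN@OMVs 2 and Ngp in IN@OMVs 3. Markers of other cell types summed to lower levels. The 7 epithelial or tumour cell markers summed to 36.2 to 42.0 CPM in IN@OMVs, 44.8 to 51.6 CPM in OMVs and 48.5 to 64.8 CPM in Control, with Cldn4 at 0 in every library. Nearly all of these sums was Cdh1, with means of 37.2, 47.2 and 54.4 CPM in the same groups. Only 2 of the 7 passed the filter on low counts. The 7 endothelial markers summed to 26.7 to 31.7, 35.3 to 42.7 and 27.7 to 32.0 CPM in the same groups and the 7 conventional dendritic cell markers to 32.2 to 41.4, 28.7 to 31.5 and 29.3 to 40.8 CPM. Over all 9 libraries the 6 NK cell markers reached at most 36.4 CPM and the 5 B cell markers at most 6.28 CPM. In IN@OMVs against Control the dendritic cell genes Batf3 and Clec9a and the endothelial gene Kdr were higher and the epithelial gene Cdh1 lower, and in IN@OMVs against OMVs Batf3 and Kdr were higher and the endothelial gene Pecam1 lower (edgeR, adjusted p under 0.05). These genes are named because they passed the test in short lists, and they do not stand for their lists. Of the 6 endothelial genes tested, Kdr alone had a positive log2 fold change in either comparison, and 5 were negative. Of the 7 dendritic cell genes, 4 were positive and 3 negative in IN@OMVs against Control. In IN@OMVs against OMVs 6 were positive and 1 negative.

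Hsph1, an HSP110 protein that releases ADP from HSP70 and helps to dissolve aggregates, had the widest difference between groups among the chaperone members. It had 113, 173 and 160.2 CPM in IN@OMVs libraries 1, 2 and 3, against 196, 202 and 184 CPM in OMVs and 97.9, 102 and 110.0 CPM in Control. All OMVs libraries lay above all IN@OMVs libraries, and all of these above Control. The fitted log2 fold change was 0.91 ± 0.14 (SE, n = 3 libraries a group here and below) for OMVs over Control, a 1.88-fold difference, 0.53 ± 0.14 for IN@OMVs over Control and -0.38 ± 0.14 for IN@OMVs over OMVs.

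Hspa8, the constitutive HSP70 of the cytosol, had 4090.3, 3689 and 3413 CPM in IN@OMVs, 4315, 4169.9 and 4486 CPM in OMVs and 3166, 3048 and 3189 CPM in Control. As for Hsph1, the 3 groups did not overlap and OMVs stood highest. The log2 fold changes were 0.46 ± 0.08 for OMVs over Control, 0.25 ± 0.08 for IN@OMVs over Control and -0.21 ± 0.08 for IN@OMVs over OMVs.

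Dnajb1, a stress-inducible HSP40 that hands substrates to HSP70, had 76.3, 107 and 93.0 CPM in IN@OMVs, 98.9, 99.8 and 92.8 CPM in OMVs and 68.7, 67.9 and 69.5 CPM in Control. Both vesicle groups lay above every Control library and overlapped each other. IN@OMVs 1 was the lowest of the 6 vesicle libraries. Log2 fold changes were 0.50 ± 0.10 for OMVs over Control, 0.42 ± 0.10 for IN@OMVs over Control and -0.08 ± 0.10 for IN@OMVs over OMVs.

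Bag3 binds HSP70 as a nucleotide exchange factor and directs its clients to autophagy. Its levels were 58.1, 63.2 and 60.8 CPM in IN@OMVs, 61.8, 62.1 and 57.9 CPM in OMVs and 48.3, 49.2 and 47.4 CPM in Control. Here the vesicle groups were level with each other (log2 fold change 0.00 ± 0.05 for IN@OMVs over OMVs) and both stood above Control by 0.33 ± 0.05.

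Hsp90aa1, the inducible cytosolic HSP90, had 434, 591 and 563 CPM in IN@OMVs, 702, 680.3 and 635 CPM in OMVs and 497, 531 and 572 CPM in Control. OMVs stood above both other groups, while IN@OMVs and Control overlapped. The log2 fold changes were 0.34 ± 0.11 for OMVs over Control, -0.01 ± 0.11 for IN@OMVs over Control and -0.34 ± 0.11 for IN@OMVs over OMVs. Chordc1 (also called CHP-1 or morgana), a zinc-binding partner of HSP90, followed the order of Hsph1. It had 79.3, 74.9 and 78.5 CPM in IN@OMVs, 84.8, 90.0 and 90.9 CPM in OMVs and 64.1, 64.1 and 67.1 CPM in Control, with no overlap between groups. Its log2 fold changes were 0.44 ± 0.05 for OMVs over Control, 0.25 ± 0.05 for IN@OMVs over Control and -0.19 ± 0.05 for IN@OMVs over OMVs.

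The mitochondrial chaperonin genes Hspd1 (HSP60) and Hspe1 (HSP10), which share the promoter block printed above, had the smallest differences of the chaperone members between OMVs and Control. Hspd1 had 296, 390.1 and 394 CPM in IN@OMVs, 445, 435 and 388 CPM in OMVs and 331, 366 and 388 CPM in Control. OMVs 3 and Control 3 were level, and IN@OMVs spread across the whole Control range. Its log2 fold changes were 0.22 ± 0.12 for OMVs over Control, -0.01 ± 0.12 for IN@OMVs over Control and -0.23 ± 0.12 for IN@OMVs over OMVs. Hspe1 had 90.7, 99.3 and 89.2 CPM in IN@OMVs, 108, 99.2 and 101 CPM in OMVs and 82.9, 82.8 and 84.7 CPM in Control. Both vesicle groups lay above Control and overlapped each other only at IN@OMVs 2 and OMVs 2. Its log2 fold changes were 0.30 ± 0.06 for OMVs over Control, 0.16 ± 0.06 for IN@OMVs over Control and -0.14 ± 0.06 for IN@OMVs over OMVs.

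**Figure D1:**
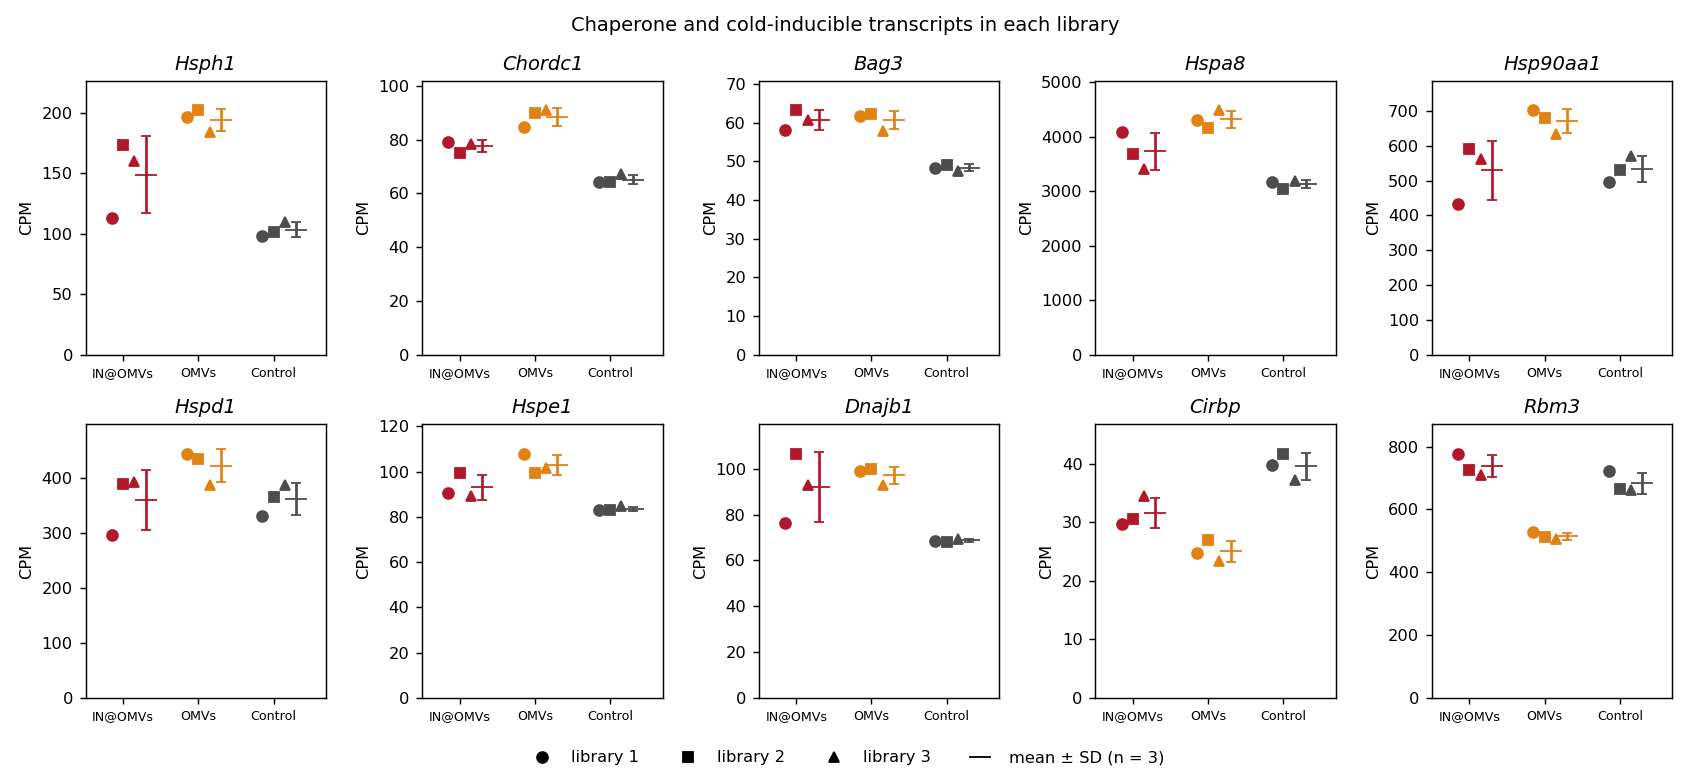
CPM of each of the 10 members in the 3 libraries of IN@OMVs, OMVs and Control, with marks for the libraries numbered 1, 2 and 3 and bars for the mean ± SD (n = 3 a group, linear axes from 0). Hsph1 averaged 149 ± 31.6 CPM in IN@OMVs, 194 ± 9.38 CPM in OMVs and 103 ± 6.18 CPM in Control, and Cirbp averaged 31.6 ± 2.60, 25.0 ± 1.84 and 39.6 ± 2.30 CPM in the same groups.

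Cirbp and Rbm3 were lower in OMVs than in Control. Cirbp, which binds stress-linked transcripts and is known to shuttle between nucleus and cytoplasm, had 29.6, 30.6 and 34.5 CPM in IN@OMVs, 24.7, 27.0 and 23.4 CPM in OMVs and 39.8, 41.7 and 37.2 CPM in Control. The 3 groups did not overlap, and their order was the reverse of that of Hsph1, Hspa8 and Chordc1. Its log2 fold changes were -0.66 ± 0.08 for OMVs over Control, -0.33 ± 0.08 for IN@OMVs over Control and 0.34 ± 0.08 for IN@OMVs over OMVs.

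Rbm3, known for enhancing translation in the cold, had 778, 726 and 711 CPM in IN@OMVs, 528, 511 and 506 CPM in OMVs and 722, 665 and 662 CPM in Control. It was low in OMVs alone, and IN@OMVs overlapped with Control. The log2 fold changes were -0.41 ± 0.06 for OMVs over Control, 0.11 ± 0.06 for IN@OMVs over Control and 0.52 ± 0.06 for IN@OMVs over OMVs. Rbm3 had a fractional expected count in all 9 libraries, which marks reads shared with other sequences, so its level is less certain than that of Cirbp, where every count was whole. Hsph1 had 1 fractional count and the other members none.

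**Figure D2:**
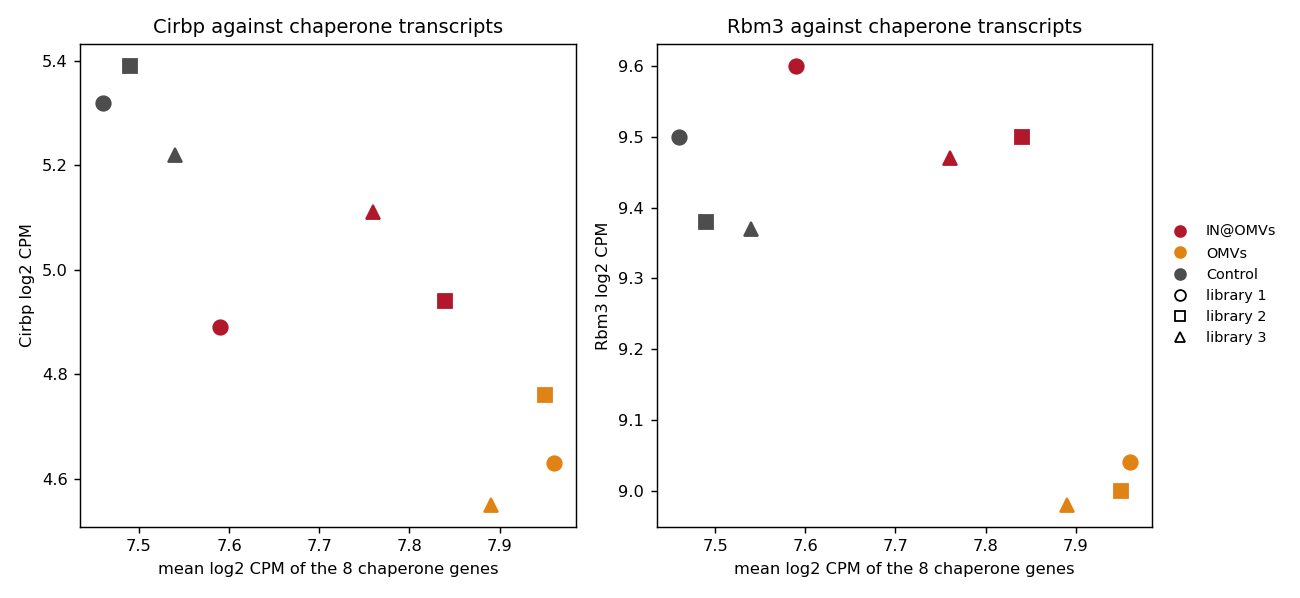
Log2 CPM of Cirbp and of Rbm3 (vertical axes) against the mean log2 CPM of the 8 chaperone members (horizontal axes) in the 9 libraries, coloured by group. The chaperone mean was 7.59, 7.84 and 7.76 in IN@OMVs, against 7.96, 7.95 and 7.89 for OMVs and 7.46, 7.49 and 7.54 for Control, so that the groups are separate on this axis, with Cirbp lowest in OMVs, whose chaperone mean is highest.

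Both comparisons with Control use the same 3 Control libraries, so their fold changes are not independent of each other. By edgeR's quasi-likelihood test at an adjusted p under 0.05 over all genes, 5 of the 10 members were called in OMVs against Control, where 0.42% of all genes tested were called (0.298% higher and 0.122% lower). Hsph1, Chordc1 and Bag3 were higher and Cirbp and Rbm3 lower. In IN@OMVs against Control 3 members were called, all higher (Chordc1, Bag3 and Dnajb1), with 6.55% of all genes called (3.32% higher and 3.24% lower). In IN@OMVs against OMVs 1 member was called, Rbm3, which was higher, with 2.85% of all genes called (1.1% higher and 1.75% lower). These comparisons were in view when the members were proposed, so nothing is read from the shares. Where the replicate number was added as a block, 1 member (Chordc1) was called in OMVs against Control and 2 (Chordc1 and Bag3) in IN@OMVs against Control.

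These counts changed when single libraries were left out. In OMVs against Control the fit called 9 members without IN@OMVs 1, 3 without IN@OMVs 2 and 1 without OMVs 1. It called 0 without IN@OMVs 3, OMVs 2, OMVs 3 or any one Control library, with 8 to 9 members at an unadjusted p under 0.05 in each of these fits. With all libraries 9 members were at an unadjusted p under 0.05, as were 1105 of the 13090 genes tested, and DESeq2 called 8 members and limma-voom 4. The members had been selected on these contrasts, so nothing is read from their counts at an unadjusted p. In IN@OMVs against Control the count of members called was 1 without any one Control library. It was 2 without any one OMVs library, IN@OMVs 2 or IN@OMVs 3, and 4 without IN@OMVs 1. In IN@OMVs against OMVs it was 3 without IN@OMVs 1. Without the 3 libraries numbered 1 the edgeR fit called 7 members in OMVs against Control, 4 in IN@OMVs against Control and 2 in IN@OMVs against OMVs. The calls over all genes moved as well. Leaving out 1 library at a time gave 0 to 266 genes in OMVs against Control and 393 to 1635 in IN@OMVs against Control. In IN@OMVs against OMVs it gave 180 to 786 genes. Counts over all genes under the other settings named here are in the last section. Under 17 alternative settings the log2 fold changes for OMVs over Control ran from 0.86 to 0.96 for Hsph1, 0.42 to 0.48 for Chordc1, -0.72 to -0.61 for Cirbp and -0.43 to -0.36 for Rbm3. Hspd1 moved more, from 0.12 (without the 3 libraries numbered 1) to 0.28. The differences from IN@OMVs also moved more. Hsph1 ran from 0.41 to 0.69 for IN@OMVs over Control and from -0.50 to -0.21 for IN@OMVs over OMVs, where Hspd1 ran from -0.30 to -0.07.

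All 8 chaperone members had a positive log2 fold change for OMVs over Control, with a median of 0.39 beside a median of 0 over all genes. Of the 8, 6 were positive for IN@OMVs over Control, with a median of 0.25, and the median for IN@OMVs over OMVs was -0.20. All but Bag3, that is 7 of the 8, had their highest mean in OMVs. For the cold-inducible pair the medians were -0.53 for OMVs over Control, -0.11 for IN@OMVs over Control and 0.43 for IN@OMVs over OMVs. Of the 10 members, 8 lay above Control in every OMVs library (Hspd1 by a margin too small to print) and 2 lay below it, where 9.89% of all genes did so in each direction. IN@OMVs lay wholly above Control for 6 members and below for 1, with 13.3% and 12.5% of all genes doing so. It lay wholly above OMVs for 2 members and below for 4, with 8.86% and 8.72% of all genes. The members had been selected on these differences, so nothing is read from their signs, medians or shares beside those of all genes.

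**Figure D3:**
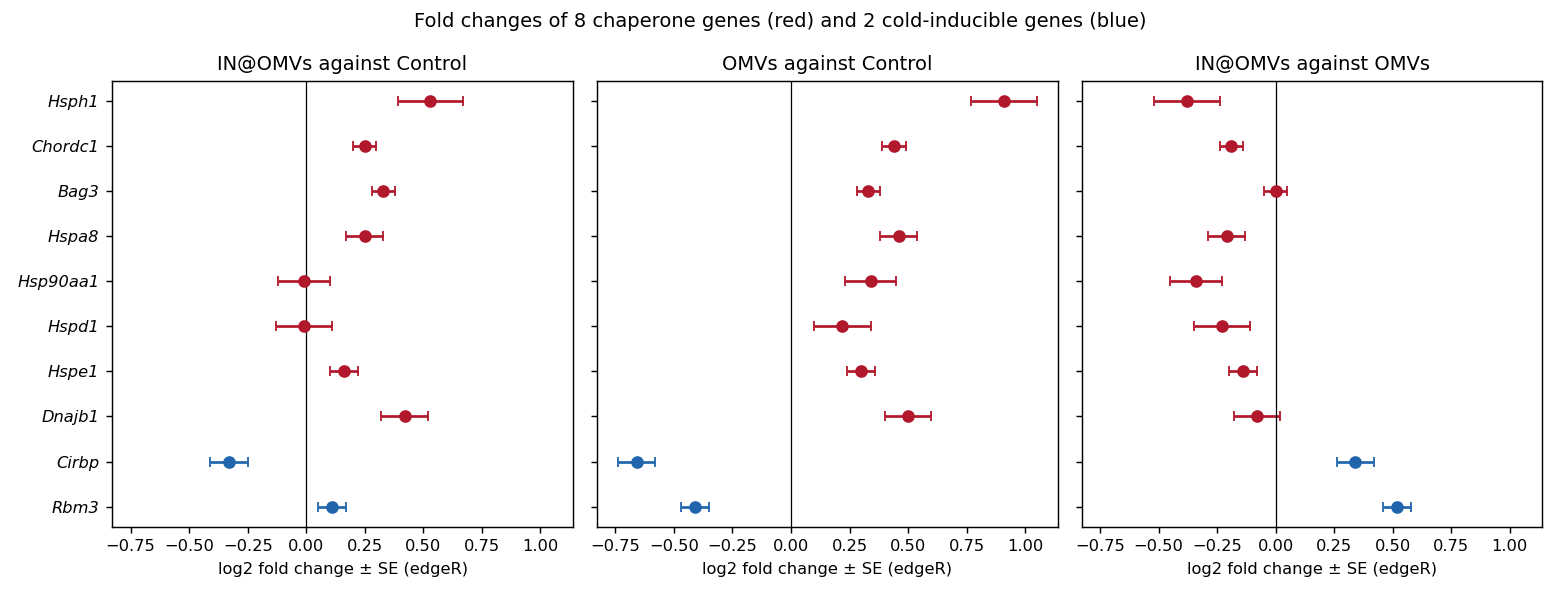
Log2 fold change (points) with its SE (bars) of the 8 chaperone members in red and the 2 cold-inducible members in blue, for IN@OMVs over Control, OMVs over Control and IN@OMVs over OMVs. For OMVs over Control the chaperone members run from 0.22 for Hspd1 to 0.91 for Hsph1 and the cold-inducible members lie at -0.66 and -0.41.

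IN@OMVs 1 stood apart from IN@OMVs 2 and 3 in Hsph1, Hsp90aa1, Hspd1 and Dnajb1, each of which was lowest in it within the group. Without it the log2 fold changes for IN@OMVs over Control were 0.69 ± 0.07 for Hsph1, 0.53 ± 0.07 for Dnajb1 and 0.11 ± 0.07 for Hsp90aa1. They were 0.11 ± 0.08 for Hspd1 and, lower than with it, 0.18 ± 0.06 for Hspa8. For IN@OMVs over OMVs they were then -0.22 ± 0.07 for Hsph1, -0.22 ± 0.07 for Hsp90aa1, -0.11 ± 0.08 for Hspd1 and 0.04 ± 0.07 for Dnajb1, nearer to 0 than with all libraries or, for Dnajb1, of the other sign. For Hspa8 this value was -0.29 ± 0.06. Besides its low fibroblast signal, this library had summed levels of 16415 CPM for the macrophage markers, 1515 CPM for 12 proliferation genes and 3579 CPM for 14 immediate early genes. In IN@OMVs 2 and 3 these sums were 11358 and 11495 CPM, 1878 and 1773 CPM, and 2662 and 2728 CPM. The part of any of these transcripts in the chaperone values was not tested.

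Of 51 further chaperone genes in 6 lists, 1 was called in each comparison, where the shares of all genes were those given above. Dnaja1, an HSP40 that works with HSC70, rose in both vesicle groups. It had 281, 255 and 264 CPM in IN@OMVs, 266, 256 and 285 CPM in OMVs and 186, 185 and 194 CPM in Control, and both vesicle groups lay above every Control library. The log2 fold changes were 0.51 ± 0.06 for OMVs over Control (edgeR quasi-likelihood test, adjusted p = 0.0234, and 0.042 with the replicate block) and 0.50 ± 0.06 for IN@OMVs over Control (adjusted p = 0.00156). The first call was lost without IN@OMVs 3 (adjusted p = 0.0547), OMVs 2 (0.0998), OMVs 3 (0.0873), Control 1 (0.0619), Control 2 (0.149) or Control 3 (0.129), all by edgeR. The second held in all 17 alternatives.

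Stip1 (HOP), which links HSP70 to HSP90, was lower in IN@OMVs than in OMVs. Its levels were 149, 169 and 162 CPM in IN@OMVs, 208, 206 and 201 CPM in OMVs and 154, 157 and 174 CPM in Control, so OMVs stood alone above the other groups. For IN@OMVs over OMVs the log2 fold change was -0.36 ± 0.07 (edgeR quasi-likelihood test, adjusted p = 0.0225). That call was lost without IN@OMVs 3 (adjusted p = 0.0817), OMVs 1 (0.0882), OMVs 2 (0.0951) or OMVs 3 (0.0593) and with only the 2 groups compared in the edgeR fit (0.0713). For OMVs over Control the log2 fold change of 0.34 ± 0.07 did not pass (adjusted p = 0.086), but it did in 3 of the 17 alternatives, by DESeq2 (0.000355) and by edgeR with only the 2 groups (0.0389) or without IN@OMVs 1 (0.016).

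Most of the 51 genes did not pass the test. For OMVs over Control 42 of them had a positive log2 fold change, with a median of 0.10, and 12 higher and 0 lower had an unadjusted p under 0.05. The count was 37 positive for IN@OMVs over Control, with a median of 0.04. Between the vesicle groups, 16 were positive and 35 negative for IN@OMVs over OMVs, with a median of -0.05. HSP90 and its co-chaperones had the highest median of the 6 lists for OMVs over Control, 0.21 over 10 genes, with 0 called by edgeR or limma-voom, 4 by DESeq2 and 6 at an unadjusted p under 0.05. Hsp90ab1, the constitutive HSP90, had 1794, 2392 and 2265 CPM in IN@OMVs, 2691, 2556 and 2321 CPM in OMVs and 2131, 2162 and 2237 CPM in Control. Its log2 fold changes of 0.21 ± 0.11, -0.02 ± 0.11 and -0.23 ± 0.11 (OMVs over Control, IN@OMVs over Control and IN@OMVs over OMVs) did not pass.

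The 8 subunits of CCT, the cytosolic chaperonin that folds actin and tubulin, all had positive log2 fold changes for OMVs over Control, from 0.03 to 0.13. All 8 were negative for IN@OMVs over OMVs, from -0.12 to -0.04. In these comparisons 0 of the 8 were called by edgeR, DESeq2 or limma-voom, and 2 and 0 had an unadjusted p under 0.05. The 7 mitochondrial chaperones and proteases other than Hspd1 and Hspe1 had medians of 0.05 for OMVs over Control, 0.04 for IN@OMVs over Control and 0.00 for IN@OMVs over OMVs. In the same order of comparisons the medians were -0.01, 0.00 and -0.07 for 3 HSF regulators, 0.14, 0.27 and 0.04 for 9 inducible HSP70 and small heat shock protein genes, and 0.09, 0.08 and -0.01 for 14 genes of the cytosolic HSP70 and HSP40 machinery.

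**Figure D4:**
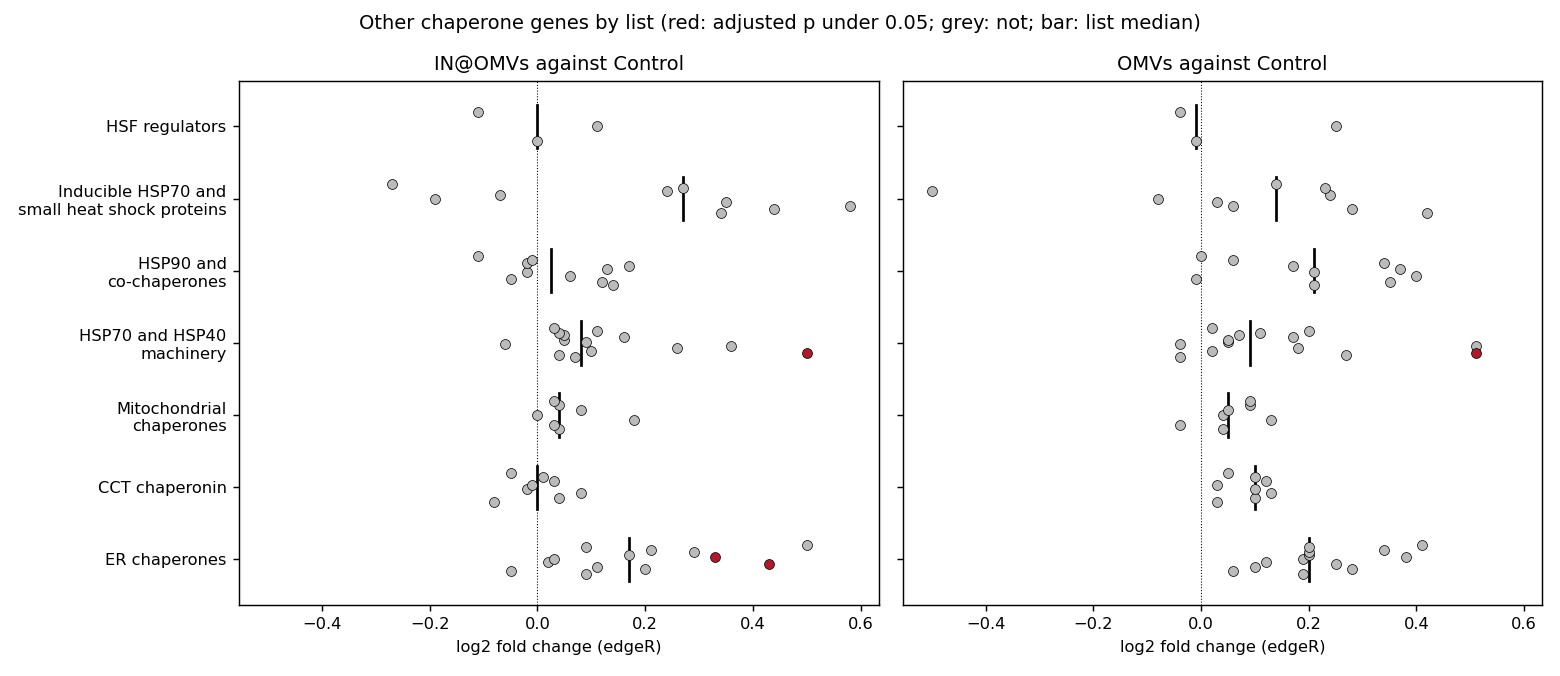
Log2 fold changes (horizontal axis) of the 51 further chaperone genes in 6 lists and of 13 ER (endoplasmic reticulum) chaperones, 1 row of points a list, for IN@OMVs and for OMVs over Control, with genes past the threshold in red, others in grey and a bar at the list's median. The 10 genes of HSP90 and its co-chaperones have a median of 0.02 for IN@OMVs over Control and 0.21 for OMVs over Control.

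The stress-inducible HSP70 genes Hspa1a and Hspa1b had their highest means in IN@OMVs. Hspa1a had 146, 86.9 and 84.5 CPM in IN@OMVs, 68.6, 71.4 and 81.5 CPM in OMVs and 80.8, 64.8 and 66.4 CPM in Control, with its highest value in IN@OMVs 1. Its near-identical neighbour Hspa1b had 164, 157 and 145 CPM in IN@OMVs, 131, 124 and 120.0 CPM in OMVs and 139.8, 117 and 109.7 CPM in Control. For both, IN@OMVs lay above the other groups, and OMVs overlapped with Control. For OMVs over Control the log2 fold changes were 0.06 ± 0.20 for Hspa1a and 0.03 ± 0.09 for Hspa1b. For IN@OMVs over Control they were 0.58 ± 0.20 for Hspa1a (edgeR, adjusted p = 0.141) and 0.35 ± 0.09 for Hspa1b (adjusted p = 0.0596, and 0.0213 with the replicate block). Hspa1b passed in 4 of the 17 alternatives, with the block, without Control 1 (0.0155), by DESeq2 (0.0123) and by edgeR without the 3 libraries numbered 1 (0.00269). In the other alternatives its adjusted p reached 0.215, without Control 3, and its log2 fold change there was 0.27. Hspa1a passed in 1 of the 17, without those 3 libraries, with a log2 fold change of 0.38 (edgeR, adjusted p = 0.00709). Without IN@OMVs 1 alone its log2 fold change was 0.27 (adjusted p = 0.112), and the adjusted p reached 0.372, without Control 2. The counts of both genes were fractional in all 9 libraries, so how their shared reads divide between them is uncertain.

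Hsf1, the factor that binds heat shock elements, had 35.1, 39.1 and 36.6 CPM in IN@OMVs, 41.4, 41.7 and 38.4 CPM in OMVs and 32.8, 36.7 and 33.0 CPM in Control. All OMVs libraries lay above Control, but the log2 fold change of 0.25 ± 0.07 did not pass (edgeR, adjusted p = 0.263). HSF1 is known to be switched on mainly at the protein level, which these data do not measure. Of the 51 further chaperone genes, 44 had a promoter window. A pair of heat shock units stood in 15 of them, among them Hspa1a, Hspa1b and Dnaja1, and a run of 3 units in 1, Dnajb6.

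Chaperones of the endoplasmic reticulum are known to be controlled by the unfolded protein response. All 13 had a positive log2 fold change for OMVs over Control, with a median of 0.20. Of these 0 were called by edgeR or limma-voom, 4 by DESeq2 and 9 at an unadjusted p under 0.05. For IN@OMVs over Control 12 were positive, with a median of 0.17, and 2 passed. Hspa5 (BiP), the HSP70 of this compartment, had 1465, 1286 and 1311 CPM in IN@OMVs, 1397, 1359.7 and 1453 CPM in OMVs and 1064, 1059 and 1102 CPM in Control, with both vesicle groups above every Control library. The counts of Hspa5 were fractional in all 9 libraries, so, as for Rbm3, its level is less certain. Hspa5 rose by 0.33 ± 0.07 on the log2 scale in IN@OMVs over Control (edgeR, adjusted p = 0.0196). Dnajb9, its HSP40 partner, rose by 0.43 ± 0.08 there (edgeR, adjusted p = 0.0148), with 48.8, 41.3 and 43.0 CPM in IN@OMVs, 37.6, 38.3 and 42.1 CPM in OMVs and 31.2, 33.1 and 34.6 CPM in Control. Both calls were lost without any one Control library, with edgeR's adjusted p at 0.0826, 0.0967 and 0.0871 for Hspa5 and 0.0653, 0.0638 and 0.0502 for Dnajb9 without Control 1, 2 and 3. That of Hspa5 was also lost with only the 2 groups compared (0.0624). For Hspa5 in OMVs over Control the log2 fold change of 0.38 ± 0.07 did not pass (edgeR, adjusted p = 0.0574). It passed in 5 of the 17 alternatives, and the adjusted p ran from 3.89e-07 by DESeq2 to 0.324 by edgeR without Control 2.

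A list of 10 temperature-linked RNA-binding and splicing genes gave medians of -0.01 for OMVs over Control, -0.05 for IN@OMVs over Control and 0.05 for IN@OMVs over OMVs. The splicing factor Srsf5 had 302, 281 and 327 CPM in IN@OMVs, 324, 344 and 329 CPM in OMVs and 380.3, 388 and 387 CPM in Control. Its values were lower in both vesicle groups than in every Control library. In IN@OMVs it fell by 0.34 ± 0.06 on the log2 scale relative to Control (edgeR, adjusted p = 0.0134, and 0.0644 without Control 2 or 0.0657 without Control 3), while -0.21 ± 0.06 for OMVs over Control did not pass (adjusted p = 0.297). Srsf7, another splicing factor, rose by 0.29 ± 0.06 in IN@OMVs over Control (edgeR, adjusted p = 0.0269), with 147, 162 and 162 CPM in IN@OMVs, 142, 149.6 and 133 CPM in OMVs and 123, 130.4 and 131 CPM in Control. That call was lost without IN@OMVs 2 (adjusted p = 0.0747), IN@OMVs 3 (0.0942) or Control 1, 2 or 3 (0.107, 0.0908 and 0.0742) and with only the 2 groups compared (0.057), all in edgeR.

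**Figure D5:**
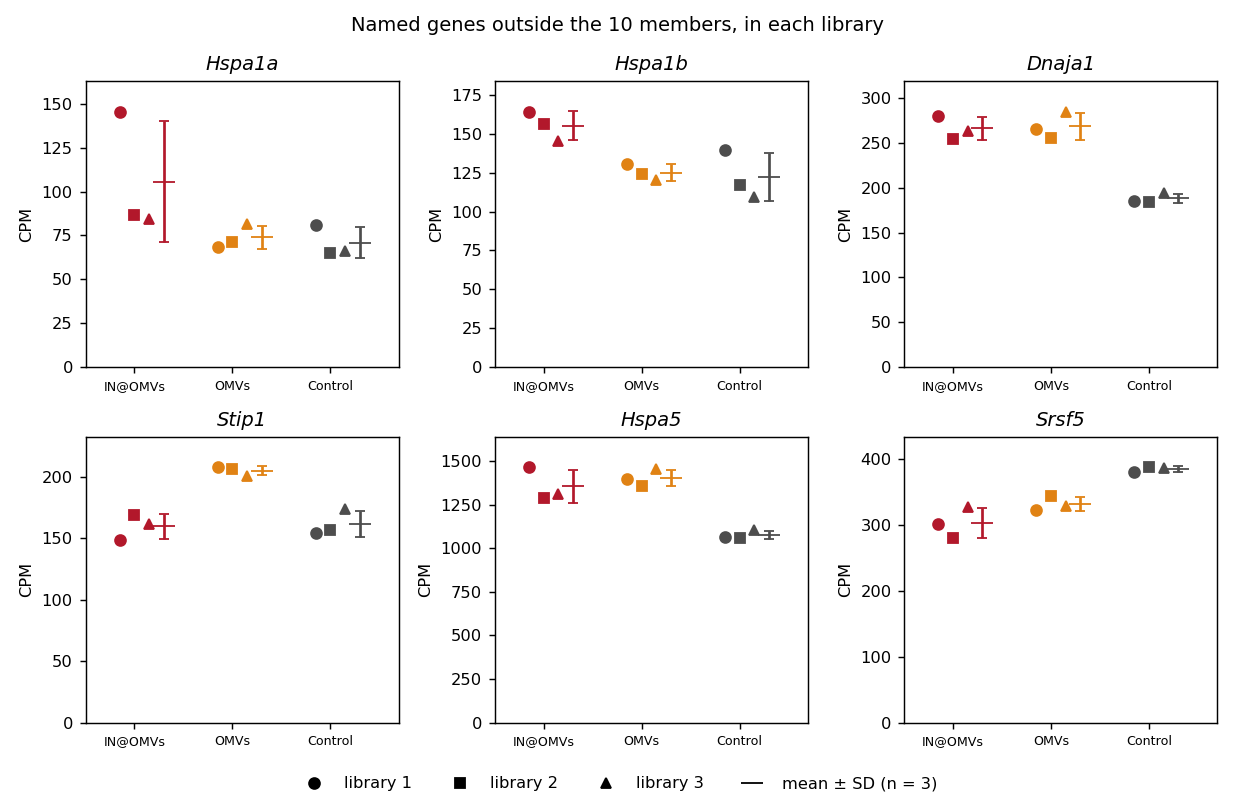
CPM of Hspa1a, Hspa1b, Dnaja1, Stip1, Hspa5 and Srsf5 in each library of IN@OMVs, OMVs and Control, with the mean ± SD (n = 3 a group, linear axes from 0). Dnaja1 averaged 266 ± 13.2 CPM in IN@OMVs, 269 ± 14.9 CPM in OMVs and 188 ± 4.96 CPM in Control, whereas Stip1 averaged 160.0 ± 10.3, 205 ± 3.55 and 162 ± 10.6 CPM in the same groups.

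The genes most like Hsph1 across the 9 libraries, by Pearson correlation of log2 CPM among 7744 candidates, were Cct4 (r = 0.96), St13 (0.951), Abcc5 (0.932), Zbtb40 (0.928) and P4ha1 (0.927). Cct4 is a CCT subunit and St13 (HIP) a co-chaperone of HSP70. Cct4 averaged 239.9 ± 7.38 CPM in IN@OMVs, 247 ± 4.47 CPM in OMVs and 227 ± 1.63 CPM in Control (SD, n = 3). Among those most like Cirbp were Zmiz1 (r = 0.96), Htra3 (0.953), Hnrnpd (0.936) and Map2k7 (0.935), and Hnrnpd encodes an RNA-binding protein. The 9 points share 3 groups and these correlations carry no test.

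Genes known to respond to tissue dissociation and handling were lower in IN@OMVs. Of 14 such immediate early genes, 10 fell in IN@OMVs against Control and 7 in IN@OMVs against OMVs, while 1, Nr4a1, fell in OMVs against Control (edgeR). Of all genes tested, 3.24%, 1.75% and 0.122% fell in these comparisons, in the same order. Nr4a1, a nuclear receptor induced within minutes of stimulation, had 24.5, 19.5 and 21.7 CPM in IN@OMVs, 64.2, 51.3 and 55.1 CPM in OMVs and 142, 104 and 95.1 CPM in Control. Its log2 fold change was -2.38 ± 0.17 for IN@OMVs over Control (adjusted p = 1e-04) and -1.0 ± 0.16 for OMVs over Control (adjusted p = 0.0382). The call for OMVs over Control was lost without any one library other than IN@OMVs 1 (adjusted p = 0.0606 to 0.236). For IN@OMVs over Control Fosb fell by 1.73 ± 0.16, Dusp1 by 0.99 ± 0.10 and Socs3 by 0.93 ± 0.10 on the log2 scale (edgeR, adjusted p = 0.000453, 0.000605 and 0.00103). The list's medians were -0.15 for OMVs over Control, -0.83 for IN@OMVs over Control and -0.68 for IN@OMVs over OMVs. The part of handling in the members' values was not tested. Nor was that of neutrophil, T cell and immediate early transcripts.

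Of 12 proliferation genes 1 fell in IN@OMVs against Control, the cyclin Ccnb2, by 0.27 ± 0.07 on the log2 scale (edgeR, adjusted p = 0.0444, and 0.0748 with the replicate block). The call was lost in 9 of the 17 alternatives (adjusted p = 0.0572 to 0.174), among them those without IN@OMVs 2, IN@OMVs 3, OMVs 2 or any one Control library.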

How the data were processed

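RNA of sorted mouse macrophages was measured in 9 libraries, 3 in each of the groups IN@OMVs, OMVs and Control. The authors deposited expected counts per gene symbol, whose unit was settled from the values (88.8% to 89.6% whole per library, different totals). Tools listed in the submitters' processing notes are RSEM, Bowtie2 and BWA, with no versions, and the builds listed there, mm9 and hg19, have no stated role, so coordinates come only from the RefSeq promoter table. Totals ran from 16813230 to 17288322 expected counts a library. The lowest count of a member was 391, for Cirbp in OMVs 3. No mitochondrial genes are listed.

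Expected counts were rounded and tested with edgeR 4.0.16 (R 4.3.3): TMM factors, filterByExpr, glmQLFit with 1 mean per group over 9 libraries and glmQLFTest for each comparison, with Benjamini-Hochberg adjustment over 13090 genes and a threshold of 0.05. The biological coefficient of variation was 0.131. Alternatives were DESeq2 1.42.0, limma-voom (limma 3.58.1), other scaling and filters, fewer libraries and a replicate block. The steps were tested on simulated counts.

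The members and all 19 gene lists were chosen with earlier results of these data known. Named beside the members were up to 4 genes of each pathway list past the threshold in a comparison, the 7 genes Hsf1, Hspa1a, Hspa1b, Hsp90ab1, Dnaja1, Hspa5 and Srsf5, and the 5 genes most like Hsph1 and Cirbp, of which 1 is not reported here.

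The labels do not say what replicate numbers mark. Deviations from the group means of same-numbered libraries correlated at 0.53, 0.37 and 0.12 for OMVs and Control and at 0.45, 0.31 and 0.15 between IN@OMVs and Control. All exceed 0.1, so these numbers were taken as pairs, which is an assumption. Some libraries of different numbers correlated as much, at 0.35 for OMVs 2 with Control 3 and 0.36 for IN@OMVs 2 with Control 3. These correlations therefore do not settle the pairing. The main fit has no block, so its calls do not use the pairs. For IN@OMVs and OMVs the same-numbered correlations were 0.07, 0.51 and -0.37 and the numbers were not taken as pairs. These choices are at odds, because libraries paired with the same Control library would also be paired with each other.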

Additional observations from a re-analysis of the deposited data

How the results depend on the processing

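Under 17 alternative settings the 10 members kept the sign of all log2 fold changes for OMVs over Control. Exceptions elsewhere were Hsp90aa1 (same sign in 14 of 17) and Hspd1 (12) for IN@OMVs over Control, and Bag3 (9) and Dnajb1 (15) for IN@OMVs over OMVs, all with fold changes near 0. The counts of calls depended on the setting and the cause was not tested.

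For OMVs against Control the main counts were 55 genes, 5 members and 1 further chaperone gene. DESeq2 called 207, 8 and 5, the fit of only the 2 groups 115, 8 and 4, and the fit without the 3 libraries numbered 1 called 313 genes and 3 further chaperone genes. Limma-voom called 36 genes. Leaving out 1 library at a time gave 0 to 266 genes, 0 to 9 members and 0 to 6 further chaperone genes. The counts of 0 genes came from edgeR without OMVs 2, OMVs 3, Control 2 or Control 3, with 734 to 942 genes at an unadjusted p under 0.05.

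For IN@OMVs against Control the main counts were 858 genes, 3 members and 1 further chaperone gene. DESeq2 called 6 members and 3 further chaperone genes, the fit of the 2 groups 519 genes and 1 member, and the fit without the libraries numbered 1 called 1475 genes and 7 further chaperone genes. Leaving out 1 library gave 393 to 1635 genes, 1 to 4 members and 1 to 6 further chaperone genes.

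For IN@OMVs against OMVs the main counts were 373 genes, 1 member and 1 further chaperone gene. DESeq2 called 646 genes and 3 members, the fit of the 2 groups 195 genes and 0 further chaperone genes (5 at an unadjusted p under 0.05), and the fit without the libraries numbered 1 called 844 genes, 2 members and 2 further chaperone genes. Leaving out 1 library gave 180 to 786 genes, 1 to 3 members and 0 to 1 further chaperone genes.

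With the replicate number as a block, 20 genes, 1 member and 1 further chaperone gene were called for OMVs against Control, and 673 genes, 2 members and 2 further chaperone genes for IN@OMVs against Control. The second further chaperone gene is Hspa1b. For IN@OMVs against OMVs, where the numbers were not taken as pairs, the block gave 306, 1 and 1. Among the members counting error is relatively largest for Cirbp, whose lowest count was 391.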
